A study of Zea mays with 9 samples.

Results

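The accessibility of maize genes that pattern the shoot and the inflorescence was examined in chromatin from roots, an organ outside the shoot and inflorescence in which these genes are known to act. The set was fixed by name, not by any measured value, as 5 classical transcription factor genes: knotted1 (kn1, Zm00001d033859), liguleless1 (lg1, Zm00001d002005), teosinte branched1 (tb1, Zm00001d033673), ramosa1 (ra1, Zm00001d020430) and barren stalk1 (ba1, Zm00001d042989). Of these, 4 were measured among 38703 genes in all, and ba1 was not analysed here.

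Seedlings of the inbred line B73 were sampled after 0 h, 6 h and 12 h in tunicamycin, and each time is represented by 3 libraries that the series calls biological replicates. Tunicamycin blocks N-linked glycosylation in the endoplasmic reticulum, so that proteins misfold there. Seeds were germinated for 2 days at 30 °C and seedlings grown for 7 days at 23 °C before nuclei were taken from flash-frozen roots. The dose label reads 5 mg per ml tunicamycin in DMSO, with no statement of whether this is a stock or the final strength. The 0 h libraries carry the same agent label as the others, and no DMSO-only libraries of the later times were part of the comparison. An effect of the drug and an effect of time alone therefore cannot be told apart. The source and extraction labels name root, while the description names protoplasts, and root is followed here. Roots hold many cell types, so a larger share of some nuclei and more open chromatin per nucleus cannot be told apart either. The labels do not say whether replicates came from separate plants or cultures, so p-values reflect the spread between the libraries of each time, whatever its source. For each gene they also draw on that spread in other genes of similar level.

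These 4 genes belong to separate families of transcription factor. kn1 encodes a KNOX homeodomain protein that is expressed in the shoot apical meristem and keeps its cells indeterminate, and it is switched off where a leaf starts to form. lg1 encodes an SBP-domain protein needed to form the ligule and auricle at the boundary of leaf blade and sheath. tb1, a TCP-domain gene selected during domestication, represses the outgrowth of axillary buds. ra1, a zinc-finger gene, makes the branch meristems of tassel and ear determinate, so that they form spikelet pairs rather than long branches. In the assay for transposase-accessible chromatin (ATAC-seq), a transposase inserts adapters into open DNA, so coverage at a gene is a measure of how open its chromatin is and not of how much RNA it makes.

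The deposited values are whole numbers per gene. They are read here as coverage and given below in parts per 1000000 of each library's total (ppm). Library totals ran from 35.0 to 39.1 megabases at 0 h, from 28.9 to 33.1 at 6 h and from 35.8 to 36.8 at 12 h. Depth thus moved with time at 6 h, and its part in the differences at 6 h was not tested, while totals of 12 h and 0 h overlapped. Low values piled up on multiples of 73, so 73 bases are read here as 1 full read, and 1 read was then worth between 1.87 and 2.52 ppm. The sources used here do not give the window counted around each gene. Levels below are therefore per gene window and not per length, and a higher level of one gene over another may reflect a wider window.

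All 4 measured genes had coverage in every library, and in the lowest single case, ra1 in 0 h replicate 1, 35.7% of genes were still lower. The mean over 9 libraries was 55.3 ± 8.71 ppm for lg1, 40.8 ± 7.15 for tb1, 24.97 ± 5.60 for kn1 and 24.6 ± 5.68 for ra1 (SD, n = 9 libraries over 3 times). The median gene of the table had a mean of 23.0 ppm, and the quartiles of all genes were 14.2 and 34.7 ppm. Coverage of lg1 was thus 2.40 times and that of tb1 1.77 times the median gene, while kn1 and ra1 stood at 1.09 and 1.07 times it. lg1 and tb1 lay above the median gene in 9 of 9 libraries, ra1 in 6 and kn1 in 5.

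In the order of levels, lg1 came first, tb1 second, and kn1 and ra1 shared the lowest place. lg1 exceeded tb1 in 9 of 9 libraries, by 14.5 ± 9.18 ppm (SD of the 9 differences), a mean difference larger than its spread. tb1 exceeded kn1 in 9 of 9 libraries, by 15.8 ± 6.92 ppm. kn1 exceeded ra1 in 5 of 9 libraries, and their difference of 0.397 ± 4.51 ppm was smaller than its spread, so these neighbours in the order could not be separated.

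Ranked by mean coverage, with rank 1 the highest of 38703 genes, lg1 was at 2031, tb1 at 6358, kn1 at 17370 and ra1 at 17754. lg1 therefore had more coverage than 94.8% of genes, tb1 than 83.6%, kn1 than 55.1% and ra1 than 54.1%. Ranks in single libraries moved widely, from 816 to 6095 for lg1, from 2048 to 10822 for tb1, from 11051 to 23887 for kn1 and from 10124 to 24853 for ra1. Many genes hold similar coverage near the middle of the distribution, so a change of few reads there crosses many ranks. By the mean at each time, kn1 ranked 22835 at 0 h, 17306 at 6 h and 12564 at 12 h, and ra1 ranked 24043, 16761 and 13016. The same ranks were 8077, 6694 and 5033 for tb1 and 2247, 2636 and 1658 for lg1, a narrower range for lg1 than for the other genes.

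**Figure D1:**
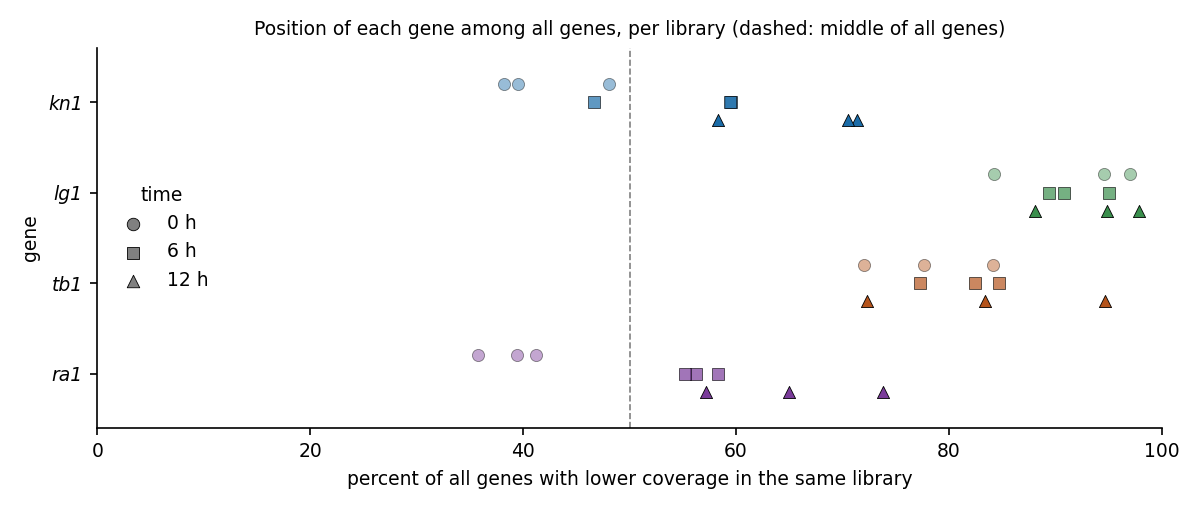
Percent of all genes with lower coverage in the same library (x axis, 0 to 100%) for each gene (y axis), with 1 point per library and the time shown by the symbol. lg1 and tb1 points lie between 72.0% and 97.9%, right of the middle of all genes, whereas every 0 h point of kn1 and ra1 lies left of it and every 12 h point right of it.

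kn1, the meristem maintenance gene, had 21.7, 17.8 and 18.2 ppm in the 0 h libraries, 26.9, 26.9 and 21.5 at 6 h, and 26.3, 32.9 and 32.6 at 12 h. Every 12 h library lay above every 0 h library, as in 5.94% of all genes, while 6 h overlapped both other times. Group means were 19.2 ± 2.16, 25.1 ± 3.12 and 30.6 ± 3.74 ppm at 0 h, 6 h and 12 h (SD, n = 3 each). Mean coverage in ppm was 1.59 times as high at 12 h as at 0 h. The log2 change, which limma estimated from ppm plus 1, was 0.64 (SE 0.31, unadjusted 95% interval 0.02 to 1.26). This change did not pass the threshold, with a limma adjusted p of 0.928. The 6 h libraries gave log2 changes of 0.36 (SE 0.31) for 6 h against 0 h and 0.28 (SE 0.31) for 12 h against 6 h, at limma adjusted p of 0.908 and 0.921.

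ra1, the gene of branch determinacy, had 17.0, 18.4 and 18.9 ppm in the 0 h libraries, 26.2, 25.6 and 25.2 at 6 h, and 34.5, 29.6 and 25.8 at 12 h. All libraries of both later times lay above all 0 h libraries, with a gap of 6.26 ppm at 6 h and 6.94 at 12 h. The libraries of 6 h and 12 h overlapped. Of all genes, 5.72% were so separated from 0 h at 6 h and 5.94% at 12 h. Both separations of ra1 rest on the same 0 h libraries, and the share of genes with both was not counted. Means were 18.1 ± 1.00, 25.6 ± 0.525 and 30.0 ± 4.35 ppm at 0 h, 6 h and 12 h (SD, n = 3 each). Against 0 h, coverage of ra1 was 1.42 times as high at 6 h and 1.66 times as high at 12 h. The log2 change was 0.48 at 6 h (SE 0.31, unadjusted 95% interval -0.14 to 1.10), with a limma adjusted p of 0.868. At 12 h against 0 h it was 0.69 (SE 0.31, unadjusted 95% interval 0.07 to 1.31), with a limma adjusted p of 0.928. Neither passed the threshold, nor did the log2 change of 0.21 (SE 0.31) at 12 h against 6 h, with a limma adjusted p of 0.942.

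tb1, the repressor of axillary bud outgrowth, had 42.8, 37.5 and 33.4 ppm in the 0 h libraries, 43.5, 36.7 and 41.0 at 6 h, and 41.6, 57.0 and 33.5 at 12 h. The 3 times overlapped, and replicate 2 at 12 h stood alone above all other libraries. Means were 37.9 ± 4.70, 40.4 ± 3.46 and 44.0 ± 11.9 ppm at 0 h, 6 h and 12 h (SD, n = 3 each). The log2 change of tb1 was 0.09 at 6 h against 0 h (SE 0.25, unadjusted 95% interval -0.40 to 0.59), with a limma adjusted p of 0.975. It was 0.18 at 12 h against 0 h (SE 0.25, interval -0.31 to 0.68), with a limma adjusted p of 0.982, and -0.01 without 12 h replicate 2. At 12 h against 6 h it was 0.09 (SE 0.25, interval -0.40 to 0.59), with a limma adjusted p of 0.974, and -0.11 without that library. A change of either sign remained within these intervals.

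lg1, the ligule gene, had 57.9, 66.7 and 43.4 ppm in the 0 h libraries, 48.9, 50.03 and 58.5 at 6 h, and 68.1, 57.4 and 46.3 at 12 h. Each time spanned much of the same range, and no time stood apart. Means were 56.0 ± 11.8, 52.5 ± 5.26 and 57.3 ± 10.9 ppm at 0 h, 6 h and 12 h (SD, n = 3 each). The log2 change of lg1 was -0.07 at 6 h against 0 h (SE 0.21, unadjusted 95% interval -0.50 to 0.36), 0.04 at 12 h against 0 h (SE 0.21, interval -0.39 to 0.47) and 0.11 at 12 h against 6 h (SE 0.21, interval -0.32 to 0.54). The limma adjusted p values were 0.976, 0.998 and 0.957 in that order. Each of these lg1 changes took the opposite sign when a single library was left out. It became 0.06 for 6 h against 0 h without 0 h replicate 2, and -0.02 for 12 h against 6 h without 12 h replicate 1. For 12 h against 0 h it became -0.13 without 0 h replicate 3 and -0.09 without 12 h replicate 1.

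**Figure D2:**
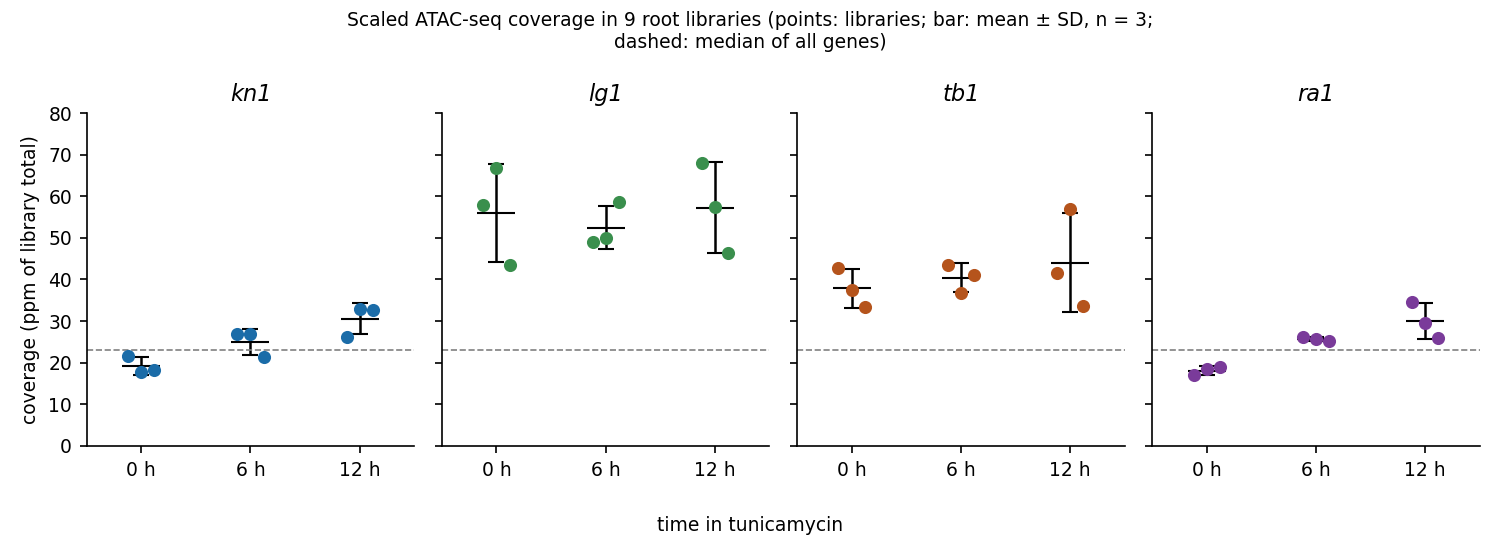
Coverage in ppm of the library total (y axis) at 0 h, 6 h and 12 h of tunicamycin (x axis) for each gene. Points are libraries, black bars the mean ± SD of 3 libraries, and the dashed line the median gene at 23.0 ppm. kn1 and ra1 stand below the line at 0 h and above it at 12 h, and the times overlap for lg1 and tb1.

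Across the whole table, limma called 0% of genes at an adjusted p under 0.05 in each of the 3 comparisons, so the absence of calls among these 4 genes was that of every gene. At an unadjusted p under 0.05 limma gave 6.28% of genes (2432) for 6 h against 0 h, 5.31% (2054) for 12 h against 0 h and 6.66% (2576) for 12 h against 6 h. Of the 4 genes, 0 were below that level for 6 h against 0 h, 2 (kn1 and ra1) for 12 h against 0 h, and 0 for 12 h against 6 h. Leaving out 1 library of these times lifted p above that level in 4 of 6 cases for kn1 and 3 of 6 for ra1. The unadjusted limma p for 12 h against 0 h was between 0.0826 and 0.106 for kn1 without 0 h replicate 2, 0 h replicate 3, 12 h replicate 2 or 12 h replicate 3. For ra1 it was between 0.056 and 0.106 without 0 h replicate 1, 12 h replicate 1 or 12 h replicate 2. For 12 h against 0 h, 1194 genes had a lower unadjusted limma p than ra1 and 1703 a lower one than kn1. The libraries of 12 h lay wholly above those of 0 h in 5.94% of all genes, which include kn1 and ra1. The libraries of 6 h lay wholly above those of 0 h in 5.72% of all genes, which include ra1.

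The log2 changes of the 4 genes had medians of 0.23 for 6 h against 0 h, 0.41 for 12 h against 0 h and 0.16 for 12 h against 6 h. Medians over all genes were 0.00, 0.01 and 0.01. The estimate was above 0 in 3 of 4 genes for 6 h against 0 h and in 4 of 4 for both other comparisons, against 50.5%, 51.2% and 51.0% of all genes. Each pair of comparisons shares 3 libraries, and the change for 12 h against 6 h is the difference of the other two, so these counts are not separate evidence. Over all genes the SD of the log2 change was 0.41 for 12 h against 0 h, and 5.34% of genes had a larger one than ra1 and 6.39% a larger one than kn1.

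**Figure D3:**
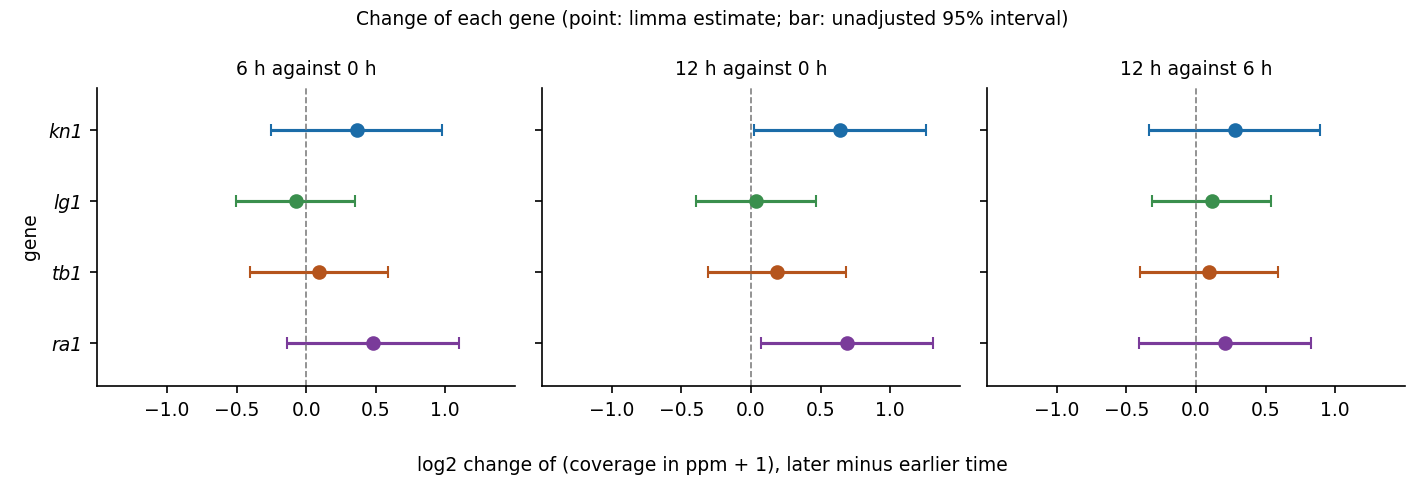
Log2 change of coverage in ppm plus 1, later minus earlier time (x axis), for each gene (y axis) in the 3 comparisons. Points are limma estimates and bars unadjusted 95% intervals. The bars of kn1 and ra1 for 12 h against 0 h start at 0.02 and 0.07, just above 0, and every other bar crosses 0.

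Few reads lay behind each value, which limits what these comparisons could show. kn1 held between 8.51 and 16.4 read equivalents per library, ra1 between 8.81 and 17.4, tb1 between 16.2 and 28.3, and lg1 between 20.8 and 34.3. The relative counting error that such numbers give averaged 30.3% per library for ra1 at 6 h, whereas its 3 libraries there spread by only 2.05% of their mean. At 0 h the same values for ra1 were 32.9% and 5.54%. The small SDs of ra1 are thus smaller than counting alone gives on average at these read equivalents. limma's SE also draws on the spread of other genes. For 12 h against 0 h it was 0.31 for ra1 and 0.21 for lg1, although lg1 spread more, in percent of its mean, at each time. For kn1 the counting error averaged 32.0% at 0 h, 30.8% at 6 h and 25.7% at 12 h, against observed spreads of 11.3%, 12.5% and 12.2%. The spread exceeded the counting error for tb1 at 12 h, at 27.1% against 21.8%, and for lg1 at 0 h, at 21.0% against 18.9%, and the 2 were nearly equal for lg1 at 12 h, at 18.98% and 18.92%. At this depth the limma interval for 12 h against 0 h was turned into a fold of ppm plus 1. It ran from 1.02 to 2.39 for kn1, from 1.05 to 2.48 for ra1, from 0.806 to 1.60 for tb1 and from 0.761 to 1.38 for lg1. These intervals are not adjusted for the number of genes.

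The genes with the next lower and next higher identifier number, which stand in the rows beside each gene in the deposited table, were compared as the local surroundings. The sources used here do not give their distance from these genes. lg1 stood beside genes of high coverage: Zm00001d002004 had a mean of 65.2 ± 3.21 ppm and Zm00001d002006 had 84.3 ± 11.6 (SD, n = 9), at ranks 769 and 103. Both of those genes were above lg1 in most libraries, with lg1 higher than Zm00001d002004 in 2 of 9 libraries and higher than Zm00001d002006 in 0 of 9. tb1 exceeded both of its neighbours in 9 of 9 libraries, Zm00001d033672 at 17.5 ± 4.46 and Zm00001d033674 at 21.5 ± 6.20 ppm (SD, n = 9).

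kn1 also exceeded its neighbours, Zm00001d033858 at 11.5 ± 2.65 ppm in 9 of 9 libraries and Zm00001d033860 at 13.0 ± 6.72 in 8 of 9 (SD, n = 9). Zm00001d033860 had 17.7 ± 4.11, 6.76 ± 3.38 and 14.6 ± 7.59 ppm at 0 h, 6 h and 12 h (SD, n = 3 each). Its 6 h libraries lay wholly below its 0 h libraries, as in 5.26% of all genes, with a log2 change of -1.33 (SE 0.48) and a limma adjusted p of 0.702. Neither neighbour of kn1 had a higher mean at 12 h than at 0 h, with log2 changes of -0.20 (SE 0.45) and -0.39 (SE 0.48). ra1 stood between Zm00001d020429, at 35.4 ± 6.17 ppm and above it in all 9 libraries, and Zm00001d020431, at 11.9 ± 4.40 and below it in all 9 (SD, n = 9). At 6 h against 0 h the log2 changes of these neighbours of ra1 were 0.07 (SE 0.26) and 0.90 (SE 0.46), at limma adjusted p of 0.985 and 0.799, beside 0.48 for ra1 itself. At 12 h against 0 h they were 0.28 (SE 0.26), with a limma adjusted p of 0.964, and 0.49 (SE 0.46), also with a limma adjusted p of 0.964. Whether kn1 or ra1 changed more than its neighbours was not tested.

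**Figure D4:**
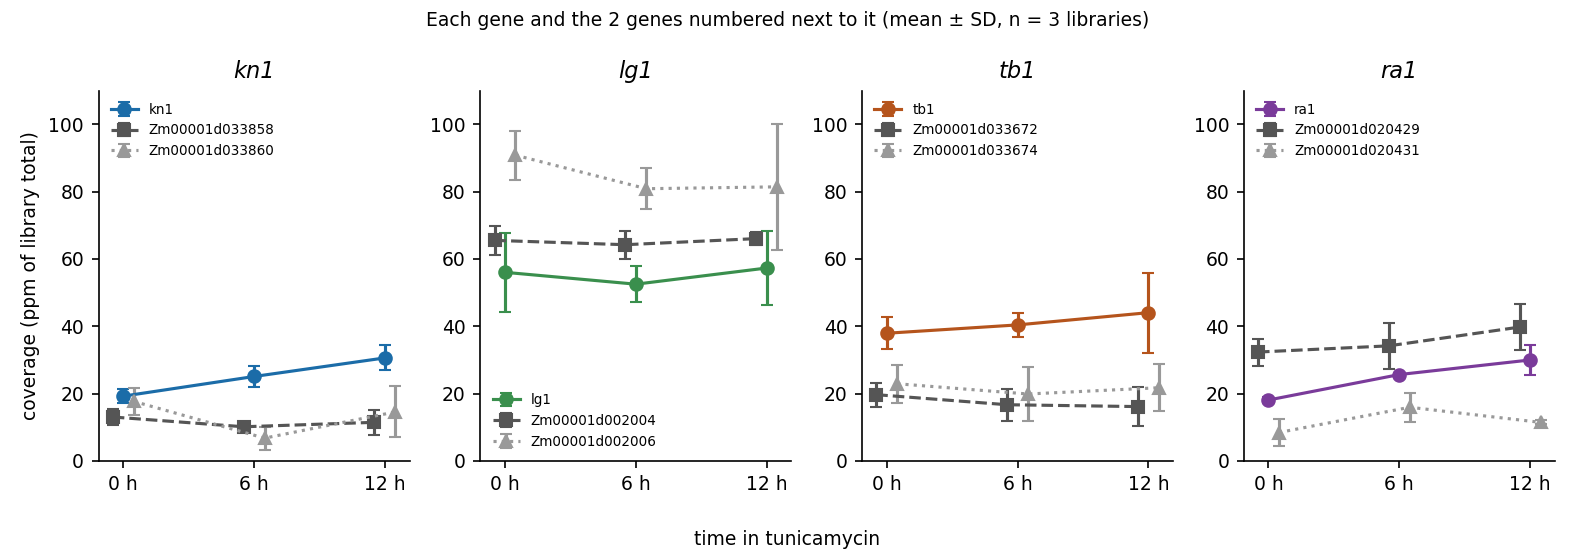
Mean coverage in ppm of the library total (y axis, ± SD, n = 3 libraries) at 0 h, 6 h and 12 h of tunicamycin (x axis) for each gene (coloured) and the genes numbered just below (squares) and above it (triangles). lg1 runs below both neighbours, tb1 and kn1 run above both, and ra1 runs between its neighbours.

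The genes whose coverage followed each of the 4 most closely were sought among 22572 other genes with a mean of at least 20 ppm, by Pearson correlation of log2 coverage over the 9 libraries. For kn1 these were Zm00001d028386 (r = 0.96) and Zm00001d003365 (r = 0.96), with means of 24.9, 29.9 and 40.8 and of 25.4, 31.6 and 41.7 ppm at 0 h, 6 h and 12 h. For ra1 they were Zm00001d008982 (r = 0.95) and Zm00001d022231 (r = 0.95), with 10.03, 24.4 and 26.0 and with 18.4, 31.0 and 36.1 ppm. For tb1 they were Zm00001d035593 (r = 0.95) and Zm00001d053067 (r = 0.93), and for lg1 Zm00001d021972 (r = 0.96) and Zm00001d048150 (r = 0.93). The best of so many genes over 9 points will be high without any relation, so these values only describe which rows look alike. None of the 4 genes was among the nearest rows of another. Among pairs of the 4, kn1 and ra1 had the highest correlation (r = 0.73), and the other pairs ran from -0.16 to 0.43. No correlation was tested. No row of the table held values identical to those of any of the 4.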

How the data were processed

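Nuclei from B73 roots at 0 h, 6 h and 12 h of tunicamycin gave 9 ATAC-seq libraries. The authors deposited whole-number peak scores per gene, which are read here as coverage (signal). They were not scaled to a common total, since column totals differ. Per the submitters' processing notes cutadapt 1.11, Bowtie2 2.2.6, MACS2 and DESeq2 were used, with no role or order given. The sources used here give no genome build, gene window, read shift or filter on duplicate and organellar reads. A wide window would dilute open sites with closed flanks, and PCR copies would make values look better sampled than they are.

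Between 16.6% and 22.6% of values above 0 per library were exact multiples of 73, so values were treated as summed bases of reads, not counts, and no count test was run. Totals equal 396306 to 536001 reads of that length. Counting errors are 100% divided by the square root of read equivalents and cover sampling only. A read that adds fewer than 73 bases counts as less than 1 equivalent, so actual reads may be more and counting errors lower. Coverage was divided by the column total, expressed in parts per 1000000 (ppm), and log2(value + 1) was fitted with limma 3.58.1 in R 4.3.3 over all 38703 genes and 9 libraries, with trended, robust moderation. This pseudocount understates changes of low genes. P-values were two-sided and Benjamini-Hochberg adjusted over all genes, with a threshold of 0.05. The script was run on simulated coverage with sampling error only and planted changes larger than those of kn1 and ra1. That run therefore does not show whether changes of their size would be found. Alternatives were TMM and median-of-ratios scaling, pseudocounts of 0.1 and 5, TMM with a pseudocount of 1 deposited unit, a minimum mean of 20 ppm, plain moderation, fits of 6 libraries, a replicate block, and leaving out each library.

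The 5 genes and these choices were set with earlier results of these data known. Genes were named by rule: the 5 genes, those with an identifier number 1 lower or 1 higher, and the 2 most correlated with each. Lists of other shoot (52 symbols) and root (27 symbols) regulators were drawn up, but RefSeq's table (Zm-B73-REFERENCE-NAM-5.0) pairs 0 of the deposited identifiers with a symbol, so neither was used, and no sequence is shown.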

Additional observations from a re-analysis of the deposited data

How the results depend on the processing

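No alternative brought any log2 change of the 4 genes past the threshold. Of the 9 alternatives other than leaving out a library, 5 could move the estimates (scaling and pseudocount), and 60 of 60 log2 changes kept their direction under them. The other 4 alter only the error or the genes tested. Leaving out each library of the 2 times compared, 66 of 72 kept their direction, and 6 reversed, all in tb1 and lg1. In tb1, 12 h against 0 h gave values between -0.014 and 0.36, and 12 h against 6 h between -0.11 and 0.27. In lg1, 6 h against 0 h gave values between -0.24 and 0.060, 12 h against 0 h between -0.13 and 0.18, and 12 h against 6 h between -0.020 and 0.25. For 12 h against 0 h over all alternatives, kn1 ran from 0.55 to 0.74, with limma adjusted p from 0.79 to 1, and ra1 from 0.59 to 0.79, with limma adjusted p from 0.79 to 1. With each 0 h or 12 h library left out, the unadjusted limma p stayed under 0.05 in 2 of 6 cases for kn1 and 3 of 6 for ra1, and reached at most 0.106 in the others. Under the 9 alternatives other than leaving out a library, the unadjusted limma p was under 0.05 in 9 of 9 for each of these genes.

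By the libraries of a single time, kn1 ranked 22835 at 0 h and 12564 at 12 h and ra1 24043 at 0 h, shifts beyond the SD of ranks over libraries. Over all genes, limma made 0 calls in each comparison, but with the replicate block it was 1 for 6 h against 0 h (Zm00001d042506, lower). Without trended, robust moderation it was 1 for 12 h against 0 h and 1 for 12 h against 6 h (Zm00001d022281, higher in both). The log2 change of Zm00001d022281 was 2.615 in both, so its 0 h and 6 h means were equal and these calls are not separate evidence. With a library left out, between 0 and 1 genes were called for 6 h against 0 h (Zm00001d006413 without 0 h replicate 1, Zm00001d016456 without 0 h replicate 3, Zm00001d042506 without 6 h replicate 1). It was 0 to 2 for 12 h against 6 h (Zm00001d005632 and Zm00001d033462 without 6 h replicate 2). These genes were named after their values were seen, and the cause was not tested. Same-numbered libraries had correlations of deviations from -0.02 to 0.01, so the numbers were not taken to pair the libraries, and the replicate block moved no call of the 4 genes. Ranking by coverage per gene length was not run, since no length could be paired with the deposited identifiers. Depth limits all of these values, at no more than 34.3 read equivalents per library in any of the 4 genes.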
